A study of Arabidopsis thaliana with 28 samples.

Results

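Acetylation of lysine 9 of histone H3 (H3K9ac) was compared between 2 PHILO ChIP-seq libraries amplified with 14 PCR cycles and 2 amplified with 10 PCR cycles, which are 4 of the 28 samples of the series and were chosen by the cycle number in their titles. PHILO ChIP-seq is a chromatin immunoprecipitation protocol for plants that works in small volumes. All 4 libraries came from whole Arabidopsis thaliana seedlings of the reference accession Col-0, 10 days old, grown in long days and left untreated, and none carried a mutation or a transgene. The same antibody against H3K9ac was used throughout, chromatin was sheared by sonication, and the domains of every library were called against 1 common IgG control. The study states that its samples were handled independently of each other but not whether they came from separate plants, so the tests measure the spread between these libraries, which may be technical. A whole seedling mixes many cell types, so fewer cells with the mark and less of the mark per cell cannot be told apart. The comparison addresses whether the amplification of a library changes the acetylated domains that are read from it.

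H3K9ac is placed by histone acetyltransferases on nucleosomes just inside the start of transcribed genes and is removed by histone deacetylases, and in seedlings it marks the genes that are in use, such as those of photosynthesis. In library preparation, PCR copies the fragments that carry adapters. A polymerase can copy fragments with very many or very few G and C bases less well than the others, and each further cycle multiplies the copies already present, which is why the base composition of domains was examined here beside their number, width and position.

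The sequences below show the extremes of base composition among the regions that had a domain in both libraries of 1 cycle number and in neither of the other. Each is a 200 bp bin of that region, the one richest or poorest in G and C, on the plus strand of TAIR10.1 (RefSeq), with G and C in capitals. The bin at AT2G38500, chr2:16118601-16118800, lay in coding sequence of a gene for an oxygenase of the 2-oxoglutarate family and held 55.5% G and C. It came from a region with a domain only at 14 cycles.
AT2G38500: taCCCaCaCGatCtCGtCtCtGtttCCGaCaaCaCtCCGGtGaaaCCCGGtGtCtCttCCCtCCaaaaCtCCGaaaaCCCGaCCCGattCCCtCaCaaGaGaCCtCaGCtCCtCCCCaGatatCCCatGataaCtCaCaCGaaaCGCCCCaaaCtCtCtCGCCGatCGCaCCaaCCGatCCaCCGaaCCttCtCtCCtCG
The bin nearest to AT3G44450, chr3:16077001-16077200, lay outside annotated genes, held 21.5% G and C, and also came from a region with a domain only at 14 cycles.
AT3G44450: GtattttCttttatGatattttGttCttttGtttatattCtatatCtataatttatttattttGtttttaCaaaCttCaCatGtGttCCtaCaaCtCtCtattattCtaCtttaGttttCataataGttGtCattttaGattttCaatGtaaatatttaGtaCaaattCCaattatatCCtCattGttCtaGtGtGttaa
The bin at AT4G23030, chr4:12073001-12073200, lay in coding sequence of a gene for an efflux carrier of the MATE family and held 52.5% G and C. It came from a region with a domain only at 10 cycles.
AT4G23030: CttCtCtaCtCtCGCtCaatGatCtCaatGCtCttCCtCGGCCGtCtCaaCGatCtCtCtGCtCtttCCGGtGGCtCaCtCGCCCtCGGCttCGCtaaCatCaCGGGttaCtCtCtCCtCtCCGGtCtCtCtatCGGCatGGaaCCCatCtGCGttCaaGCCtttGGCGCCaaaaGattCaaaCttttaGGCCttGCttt
The bin past the 3′ end of AT4G02760, chr4:1223601-1223800, lay between genes except for 17 bases in an exon of the neighbouring gene. It held 23.0% G and C and also came from a region with a domain only at 10 cycles.
AT4G02760: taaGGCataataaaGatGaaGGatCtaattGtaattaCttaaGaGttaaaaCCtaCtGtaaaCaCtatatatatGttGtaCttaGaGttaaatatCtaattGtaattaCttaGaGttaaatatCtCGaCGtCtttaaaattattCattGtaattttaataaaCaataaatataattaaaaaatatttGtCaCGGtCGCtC
The choice of the richest and the poorest region fixed that each side shows 1 bin of either kind. Of the regions themselves, 21 of the 169 found only at 14 cycles and 0 of the 8 found only at 10 cycles held under 35% G and C. Among regions with a domain in all 4 libraries the share was 8.21%. At least 45% G and C was held by 23 of the 169, by 2 of the 8, and by 6.22% of the regions found in all 4.

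The 14-cycle libraries were read more deeply, and depth and cycle number cannot be told apart in these 4 libraries. The ChIP counts in domains on chromosomes 1 to 5 were 2727224 and 2522805 at 14 cycles and 1767699 and 1702883 at 10 cycles. The size of each ChIP library relative to the IgG library, recovered from the deposited counts and log2 fold changes, was 0.468 and 0.464 at 14 cycles and 0.288 and 0.263 at 10 cycles. That is 44.5% and 44.1% against 27.4% and 24.99% of the mean of the 2 libraries labelled 10M, the deepest of the depth series. In the 12-cycle libraries it was 39.2% and 30.8%, and in the libraries labelled 2M and 5M for their approximate read number it was 33.7% and 30.4%, and 45.8% and 53.9%. The paper's methods give a range of cycles for most of its datasets, but the number used for those depth libraries is not given in the sources used here.

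Domains sat in the same place at both cycle numbers, over the first kilobase of genes. At 400 bp downstream of the annotated start, where coverage was highest in every library, a domain covered 55.1% and 54.5% of the 27444 protein-coding genes at 14 cycles and 52.6% and 53.8% at 10 cycles. Both 14-cycle libraries stood above both 10-cycle libraries there. At the start site itself the shares were 26.3% and 25.5% at 14 cycles and 26.1% and 25.3% at 10 cycles, and the groups overlapped (exact permutation test, two-sided, p = 0.667, where the smallest p that 2 libraries against 2 allow is 0.33). The difference of 0.206 percentage points turned to -0.213 without replicate 1 of 14 cycles and to -0.197 without replicate 2 of 10 cycles. Domains that overlapped protein-coding genes were measured from the start site of the gene with which each shared most bases. They began a median of 49 and 53 bp downstream of it at 14 cycles and 45 and 53 bp at 10 cycles. They ended a median of 995.5 and 992 bp downstream of it at 14 cycles and 1024 and 972 bp at 10 cycles. Neither edge separated the groups. Domains outside any gene made up 0.681% and 0.606% of the calls at 14 cycles and 0.438% and 0.648% at 10 cycles, again with overlap.

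**Figure D1:**
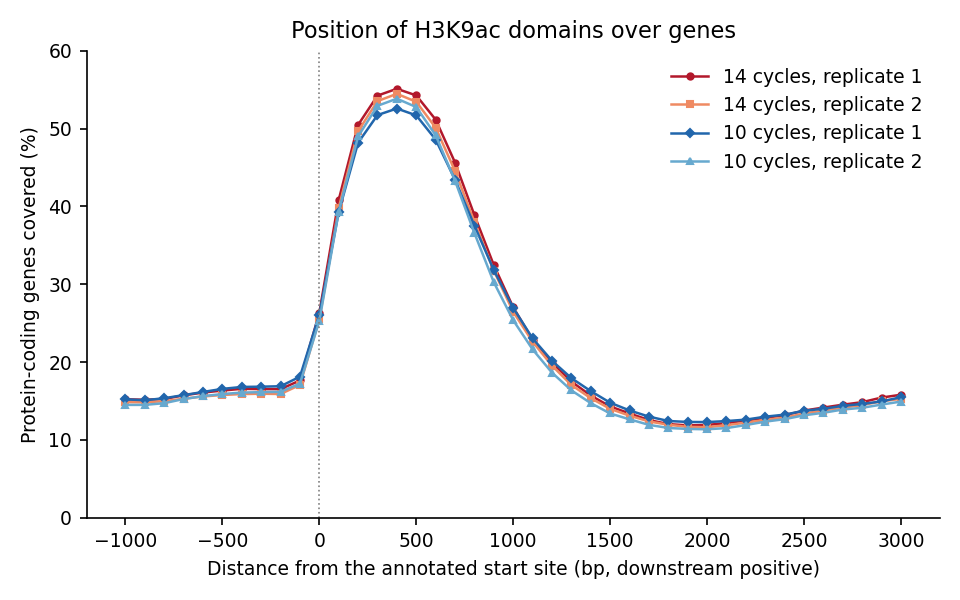
Share of protein-coding genes covered by a domain (%, y axis) against the distance from the annotated start site (bp, x axis) in the 4 libraries, 1 line each. All 4 lines peak at 400 bp, between 52.6% and 55.1% of genes, and lie within a few percentage points of each other over the whole window.

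Photosynthesis genes carried domains in all 4 libraries, and a list of genes taken to be silent in seedlings carried none. All 22 photosynthesis genes, among them the antenna proteins LHCB6 and LHCB4.1 and the oxygen-evolving complex subunit PSBO1, had a domain in each library. Of 15 genes used as expression references, 15 and 15 had a domain at 14 cycles and 14 and 15 at 10 cycles, the missing one being PP2AA3, a regulatory subunit of protein phosphatase 2A, in replicate 1 of 10 cycles. Of 30 genes of the jasmonate pathway, 25 and 24 had a domain at 14 cycles and 24 and 24 at 10 cycles. JAZ7, a repressor of jasmonate responses, had a domain only in replicate 1 of 14 cycles, and JAZ4, JAZ8, JAZ13 and the storage proteins VSP1 and VSP2 had none in any library. None of the 22 genes listed as silent in seedlings, mostly genes of seeds and flowers, had a domain in any of the 4. Of 8 root genes the transcription factors SCR and SHR had one in all 4 and the other 6 in none. Of all 27444 protein-coding genes, 16216 and 16085 (59.1% and 58.6%) had a domain anywhere in their body at 14 cycles. At 10 cycles 15505 and 15946 had one (56.5% and 58.1%). In all 4 libraries 14969 genes had a domain, and 10551 had none in any.

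More domains were called at 14 cycles. On chromosomes 1 to 5 there were 14105 and 14026 domains at 14 cycles and 13234 and 13898 at 10 cycles, a difference of means of 499.5 with no overlap between the groups (exact permutation test, two-sided, p = 0.33). Among domains with a log2 fold change over IgG of at least 1 the numbers were 13784 and 13727 against 13077 and 13743, and the groups overlapped (exact p = 0.667). The 10-cycle libraries differed more from each other than replicate 2 of 10 cycles did from the 14-cycle libraries. The covered length was 17.97 and 17.44 Mb at 14 cycles and 17.61 and 17.20 Mb at 10 cycles, a higher mean at 14 cycles by 0.2997 Mb with overlap between the groups (p = 0.667 by the same exact test).

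Merging the domains of the 4 libraries where they overlapped or touched gave 13959 regions, of which 12497 (89.5%) had a domain in all 4. A domain in both 14-cycle libraries and neither 10-cycle library was found in 169 regions, and the opposite in 8. When calls under a log2 fold change of 1 were dropped these counts were 152 and 35, and with an FDR of at most 1e-10 they were 223 and 18. A further 603 regions had a domain in 3 libraries, 410 of them missing only in replicate 1 of 10 cycles, 91 only in replicate 2 of 10 cycles, and 35 and 67 only in replicates 1 and 2 of 14 cycles. Replicate 1 of 10 cycles therefore accounted for most of the regions found in 3 libraries. The same asymmetry was present between the depth groups, where 281 regions had a domain in both 5M libraries and neither 2M library and 4 the opposite. Between 12 and 10 cycles the counts were 108 and 20, and between 14 and 12 cycles 78 and 21. Set against the 2M libraries, 103 regions were found only at 14 cycles and 23 only at 2M, while 33 were found only at 10 cycles and 114 only at 2M. In each of these pairs the group with more counts had more domains of its own. With only 3 of the 4 libraries deciding, the regions of 14 cycles only numbered 321 and 364 without replicates 1 and 2 of 14 cycles and 263 and 585 without replicates 1 and 2 of 10 cycles, and those of 10 cycles only numbered 78, 43, 121 and 27 in the same order.

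The 169 regions found only at 14 cycles were short and weakly enriched. Their median width was 600 bp (range 400 to 3000 bp) against 1400 bp for the regions shared by all 4 libraries, and their median log2 fold change over IgG was 1.44 against 2.18. The 8 regions found only at 10 cycles, with 600 bp and 1.58, and the 1462 regions that lacked a domain in at least 1 library, with 800 bp and 1.51, had the same traits. The 169 lay in genes in all but 4 cases and mostly inside the gene, since 24.9% held a start site against 53.1% of the shared regions and 24.5% of the 1462. All 169, like all shared regions, had a domain in both 10M libraries. In both 12-cycle libraries 61 of the 169 had one (36.1%), 67 in 1 of these and 41 in neither. Of the 1462 regions, 97.4% had one in both 10M libraries and 37.9% in both 12-cycle libraries. The distance of the 169 to the nearest shared region, a median of 2600 bp, was the same as between shared regions. Counts in them had a median of 61 in replicate 1 and 57 in replicate 2 of 14 cycles, with ranges of 30 to 140 and 29 to 155. Scaled down to the depth of replicates 1 and 2 of 10 cycles, the median counts were 35.8 and 32.7. Domains of at most 600 bp called in those libraries had median counts of 60 and 54. Since the regions were chosen for lacking a domain at 10 cycles, this is a description of their counts, and the part of depth was not tested. Of the 169, 148 and 130, respectively, fell under the 5th percentile of the counts of all domains in those libraries, 47 and 39. Under the smallest count of any domain there, 25 and 21, fell 2 and 1.

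Among the 10 regions of this kind with the highest fold change over IgG, the first was in emb1379, a gene needed for embryo development, with 57 counts in each 14-cycle library and a log2 fold change of 2.54. It was followed by AT5G65685, annotated as a UDP-glycosyltransferase, with 50 and 46 counts, and by MEE23, of the berberine family of FAD-binding proteins, with 42 and 43 counts. MEE23 had no domain in any library of 12 cycles, 2M or 5M, whereas emb1379 and AT5G65685 had one in all 4 libraries of 2M and 5M. The others were a region 176 bp from AT2G30430, CIPK16, a kinase that acts with calcineurin B-like calcium sensors, AT5G13830, EMB2247, AT4G28020, AT1G47670 and DCP5-L, with 40 to 64 counts. Of these 10, only the region at EMB2247 held the start of its gene.

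The 8 regions found only at 10 cycles had 40 to 72 counts in replicate 1 and 34 to 49 in replicate 2. At AT1G12000, annotated as a phosphofructokinase, the counts were 44 and 42 and the log2 fold change was 2.38, the highest of the 8. ELIP1, a chlorophyll-binding protein induced by strong light, had 53 and 40 counts. The others were AT5G58570, AT4G23030, AT3G02930, AT2G17930, AT1G06360 and AT4G02760. None of the 8 had a domain in both 12-cycle libraries, and all 8 had one in both 10M libraries. Of the 1462 regions that lacked a domain in at least 1 library, 37.9% and 97.4% had one in these pairs, respectively.

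The base composition of the domains did not separate the cycle numbers. G and C made up 39.34% and 39.61% of the bases in domains at 14 cycles and 39.43% and 39.32% at 10 cycles, against 36.0% of the 5 chromosomes (difference of means 0.0995 percentage points, exact permutation test, two-sided, p = 0.667). Without replicate 2 of 14 cycles the difference was -0.0355. Domains of at most 400 bp had a median GC content of 41.0% and 41.3% at 14 cycles and 41.5% and 40.8% at 10 cycles, and the groups overlapped there too. The 169 regions found only at 14 cycles had a median GC content of 39.5% (interquartile range 36.5% to 42.2%), against 39.1% in all shared regions and 39.5% in the 2792 shared regions of at most 800 bp. Their interquartile range was the same as that of the 1462 regions that lacked a domain in at least 1 library (36.5% to 42.2%). A GC content of at least 45% was found in 23 of them (13.6%) and in 8.42% of the shared regions of at most 800 bp, and one under 35% in 21 (12.4%) and in 6.27%. The richest were AT2G38500 (55.0%), MEE23 (54.0%) and CNGC18 (53.0%), a cyclic nucleotide-gated channel of pollen tubes, and the poorest were the region 1472 bp from AT3G44450 (29.8%), AT3G23480 (31.0%) and ckl10 (31.9%), a casein kinase. The 8 regions found only at 10 cycles spanned 36.1% to 46.8%.

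**Figure D2:**
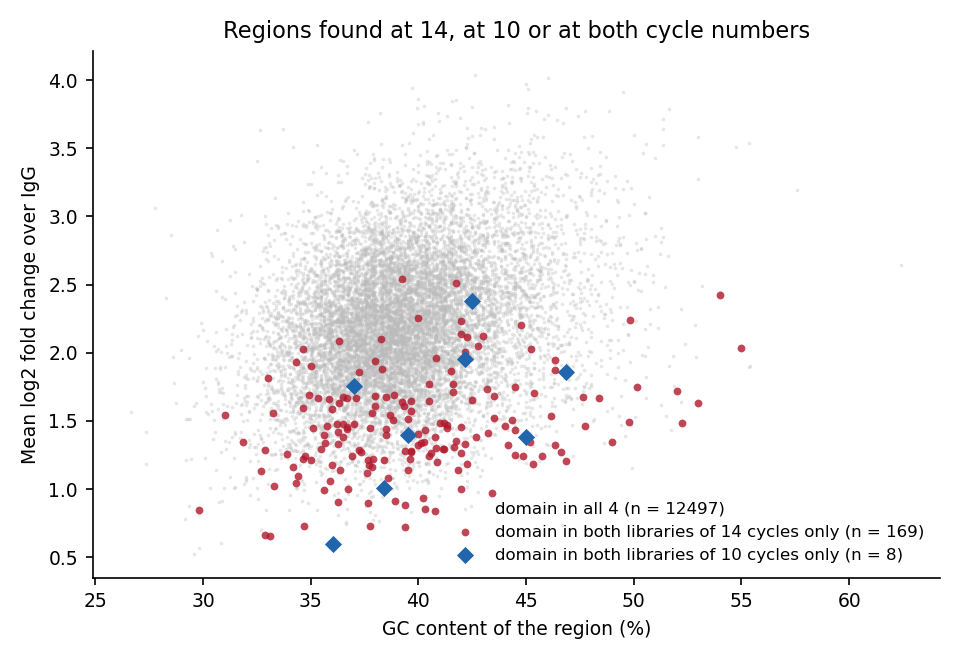
Mean log2 fold change over IgG (y axis) against GC content (%, x axis) of regions with a domain in all 4 libraries (grey), in both 14-cycle libraries only (red) and in both 10-cycle libraries only (blue diamonds). The 169 red points lie mostly in the lower part of the grey cloud, with a median of 1.44 against 2.18, and span 29.8% to 55.0% GC.

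In the shared regions, counts followed GC content in opposite directions in the replicates of each cycle number. The slope of the log2 ratio of a library's CPM (counts scaled to equal library totals) to the mean of the 4, per 10 percentage points of GC, was -0.08 and 0.07 at 14 cycles and 0.06 and -0.04 at 10 cycles. Replicate 1 of 14 cycles and replicate 2 of 10 cycles had relatively more counts in AT-rich regions, and the remaining libraries in GC-rich ones. The mean slopes differed by -0.01 between the cycle numbers, less than the spread within each of them, and the difference turned positive without replicate 1 of 14 cycles (0.0615) or replicate 1 of 10 cycles (0.0413). Over the 11880 regions with a domain in all 12 PHILO libraries of the cycle and depth series, the slopes of the 12-cycle libraries were -0.10 and -0.09 and those of the 5M libraries 0.13 and 0.02, so that 14 cycles lay inside the range of the other libraries. From the most AT-rich to the most GC-rich quintile of the regions, the median log2 ratio of 14 over 10 cycles was 0.00, 0.02, 0.01, 0.01 and -0.02.

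**Figure D3:**
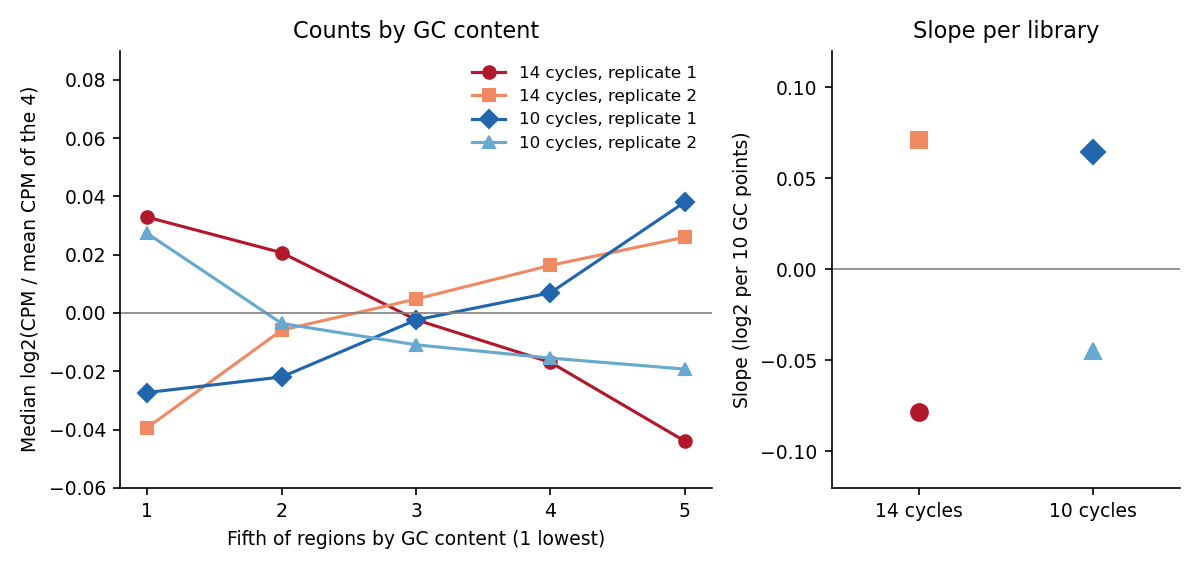
Left, median log2 ratio of a library's CPM to the mean CPM of the 4 libraries (y axis) in quintiles of the 12497 shared regions by GC content (x axis, 1 the lowest), 1 line per library. Right, least-squares slope of that ratio on GC content for each library (log2 per 10 GC percentage points), which was positive in 1 library and negative in 1 library of each cycle number.

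Domain width did not separate the groups. The median width was 1000 bp in each of the 4 libraries, and the mean was 1274 and 1243 bp at 14 cycles and 1331 and 1238 bp at 10 cycles. Broad domains of at least 3000 bp numbered 748 and 666 at 14 cycles and 818 and 689 at 10 cycles, and narrow ones of at most 400 bp 574 and 666 against 463 and 702. Replicate 1 of 10 cycles had the most broad and the fewest narrow domains of the 4 libraries, while replicate 2 had the most narrow ones. Within the 12497 shared regions the covered length was greater in both 14-cycle libraries in 987 (7.90%), greater in both 10-cycle libraries in 860 (6.88%), and the same in all 4 in 1314. The median difference was 0 bp.

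The largest such differences ran in both directions. At AT2G31390, annotated as a carbohydrate kinase of the pfkB type, domains covered 6400 and 6000 bp at 14 cycles and 3400 and 4200 bp at 10 cycles. At SHL1, a PHD finger and BAH domain protein that binds histone H3, they covered 5800 and 6000 bp against 4200 and 3400 bp. AT5G16200, AT3G07760 and AT3G49790 were also wider at 14 cycles, by means of 2300, 2100 and 1900 bp, the last tied with AT4G32330, AT5G02865 and NDL1. In the opposite direction, domains at AT1G08895, a noncoding RNA, covered 6800 and 6600 bp at 14 cycles and 10000 and 9600 bp at 10 cycles. At RAP2.4, an ethylene response factor-type transcription factor, the lengths were 6400 and 4000 bp against 7800 and 7800 bp. At CIL, a CCT motif protein, they were 2800 and 2200 bp against 4800 and 5600 bp, and at FdC2, a ferredoxin-like protein, 3400 and 4200 bp against 6000 and 6400 bp. AT5G44572 was also among these, with 1400 and 1400 bp against 4400 and 3200 bp. The 8 libraries of 12 cycles, 2M, 5M and 10M kept to 1 side at some of these regions and not at others. At RAP2.4 they covered 4200 to 8000 bp and at CIL 2400 to 6000 bp, with lengths near those of either cycle number. At SHL1 they covered 4400 to 5800 bp, more than both 10-cycle libraries. At AT3G49790 they covered 3400 to 4200 bp, also more than both 10-cycle libraries, at 2800 and 2600 bp. At FdC2 they covered 4000 to 5200 bp, less than both 10-cycle libraries.

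The counts in the shared regions were tested with edgeR's quasi-likelihood test after TMM scaling, in CPM. With Benjamini-Hochberg adjustment 1 of the 12497 regions was called, which is 0.008% of them, and DESeq2 called 0. At an unadjusted p under 0.05 there were 638 regions, 336 higher and 302 lower at 14 cycles, against 102 by DESeq2. The median absolute log2 fold change was 0.11 and the largest were -1.19 and 1.17. Both 14-cycle libraries stood above both 10-cycle libraries in CPM in 2114 regions (16.9%) and below both in 2116 (16.9%). On counts drawn with the means and library sizes of these 4 libraries, the test recovered 62% of the regions changed by 1.5-fold and 97% of those changed by 2-fold, with 9 false calls each. How far these rates hold for the data, where counts follow the called length, was not tested. Without replicates 1 and 2 of 14 cycles the calls numbered 57 and 25, and without replicates 1 and 2 of 10 cycles 0 and 1. Scaling by the recovered library sizes in place of TMM shifted the median log2 fold change of all regions from 0.00 to -0.18.

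The 1 region called, named after AT5G44572 and lying at 17968201 to 17974200 on chromosome 5, differed in called length as well as in counts. Its CPM was 38.9 and 34.4 at 14 cycles and 82.0 and 79.9 at 10 cycles, and the groups did not overlap (log2 fold change -1.14, SE 0.16, adjusted p = 0.0254, edgeR quasi-likelihood test with Benjamini-Hochberg adjustment). In both 14-cycle libraries the only domain lay 1800 to 3200 bp from the region border, mostly over the neighbouring gene AT5G44574. Replicate 2 of 10 cycles had the same domain, with 69 counts against 103 and 85 at 14 cycles, and a second one of 64 counts at 4200 to 6000 bp. Replicate 1 of 10 cycles had a single domain over the first 4400 bp. Per covered base the log2 fold change was 0.27 (adjusted p = 0.975, edgeR quasi-likelihood test with the covered length as offset). Only 1400 bp were called at 14 cycles, so this value depends on which bins were called. It does not show whether the counts over equal bases differed. The call was absent without replicate 1 of 10 cycles (adjusted p = 0.307, the same test) and without replicate 2 of 10 cycles (0.102).

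Other regions with small p-values showed the same coupling of counts and length, and none passed the adjusted threshold of 0.05. RLP38, a receptor-like protein, had 78.1 and 58.3 CPM at 14 cycles and 29.1 and 31.8 CPM at 10 cycles (log2 fold change 1.17, SE 0.19, adjusted p = 0.0723, edgeR quasi-likelihood test). Its domains covered 2800 and 2200 bp at 14 cycles and 800 and 1200 bp at 10 cycles, and 2200 to 2800 bp in the 8 libraries of 12 cycles, 2M, 5M and 10M. At MTK, the methylthioribose kinase of methionine salvage, the CPM were 75.5 and 89.0 against 42.2 and 44.5, over 2000 and 2200 bp against 800 and 800 bp. GPT1, which carries glucose 6-phosphate into plastids, had 53.2 and 47.8 CPM at 14 cycles and 89.4 and 97.9 CPM at 10 cycles (log2 fold change -0.89, SE 0.14, adjusted p = 0.0723, the same edgeR test). Domains covered the first 1000 bp at GPT1 in both 14-cycle libraries and reached 3000 bp, past the end of the gene, in both 10-cycle libraries. The 12-cycle libraries resembled the former, with 600 and 600 bp.

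The rest of the 10 smallest p-values in each direction included several well-known genes. Higher at 14 cycles were RSZ22, a splicing factor, NRPE7, a subunit of RNA polymerase V, and NDL1, with log2 fold changes of 0.85, 0.95 and 0.50, as well as AT5G02865, AT4G11521, AT1G78460, AT3G48200 and AT3G07760 with 0.38 to 1.01. Lower at 14 cycles were NRT1.1, the nitrate transporter and sensor, with 100.4 and 92.3 CPM against 141.9 and 127.4, and PSBP-1, a subunit of the oxygen-evolving complex of photosystem II, with 135.1 and 131.5 CPM against 173.8 and 176.1 (log2 fold change -0.39, SE 0.09, adjusted p = 0.410, edgeR quasi-likelihood test). At PSBP-1 the domains covered 3200 and 2600 bp at 14 cycles and 4200 and 4400 bp at 10 cycles. AT2G39375, AT3G44610, AT3G22540, AT1G08895, AT5G44565 and AT5G59500 were also among the lowest, with log2 fold changes of -0.34 to -1.19. Per covered base, 19 of these 20 regions had a log2 fold change of the opposite sign, AT1G78460 being the exception. This measure divides the count by the called length, so it is tied to that length in the opposite way. Counts were given per domain and not per bin, so counts over equal bases were not compared in these regions.

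Across the 12497 regions the fold change followed the change in called length. The median log2 fold change was -0.23 in the 721 regions whose mean covered length at 14 cycles was under that at 10 cycles by more than 0.5 on the log2 scale, -0.01 in the 2934 regions with equal length, and 0.25 in the 694 regions where it was greater by more than 0.5. Pearson's r across regions was 0.67 with the log2 ratio of covered lengths and -0.03 with GC content. Counts and lengths come from the same domains, and regions are not independent replicates. The count of a wider domain includes more bins, so these fold changes contain the called length by construction.

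**Figure D4:**
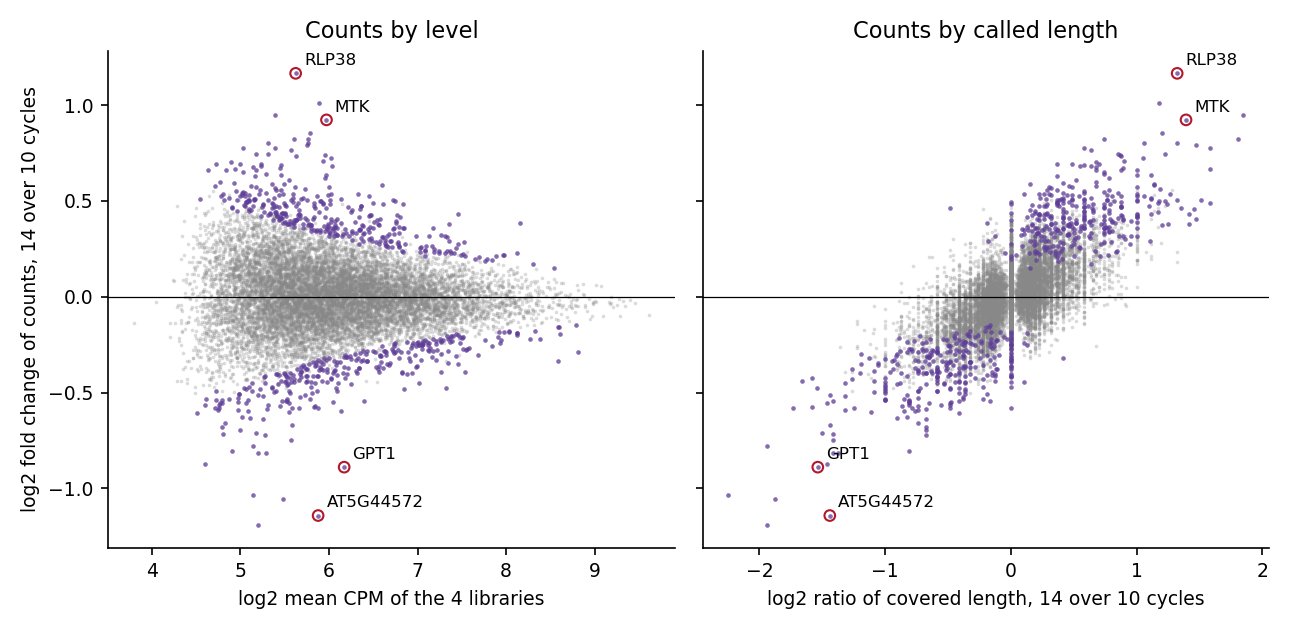
Log2 fold change of counts, 14 over 10 cycles (y axis), of the 12497 shared regions against the log2 mean CPM (left) and against the log2 ratio of covered length (right). Regions with an unadjusted p under 0.05 are purple and 4 named regions are ringed; the points on the right rise with the length ratio (Pearson's r 0.67).

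**Figure D5:**
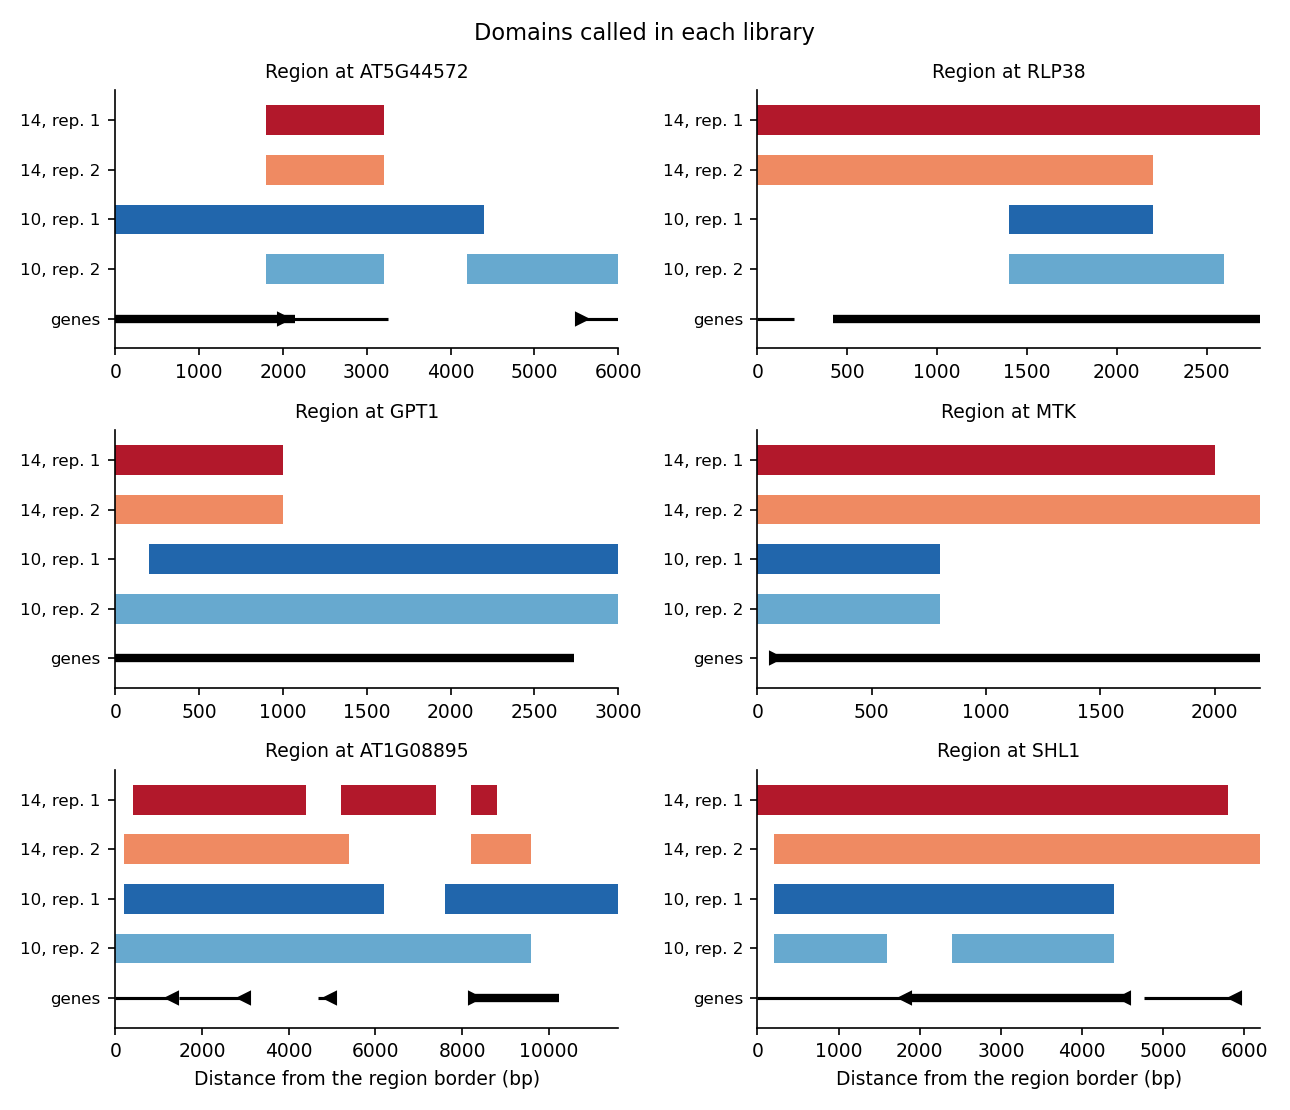
Called domains (bars) in each of the 4 libraries at 6 regions, against the distance from the left border of the region (bp). Black lines are annotated genes, the thick one being the gene the region is named after, and arrowheads mark start sites inside the region. Domains at AT5G44572, GPT1 and AT1G08895 extend further at 10 cycles, and those at RLP38, MTK and SHL1 extend further at 14 cycles.

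The regions with the most counts differed little between the cycle numbers. AT3G51950, a zinc finger protein that binds RNA, had the highest mean, with 769 and 746 CPM at 14 cycles and 795 and 823 CPM at 10 cycles (log2 fold change -0.09, SE 0.06), lower at 14 cycles without overlap. At ARF2, an auxin response factor, the CPM were 694 and 692 against 685 and 731, and the groups overlapped. AT5G42050, ATSTE14B and AT4G32030 followed, with log2 fold changes of -0.01, -0.05 and -0.02.

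None of the gene lists held a called region, and the median log2 fold change of all regions, against which theirs are given, was 0.00. The 22 photosynthesis genes lay in 19 shared regions, with a median log2 fold change of -0.05, where 3 regions stood above and 7 below without overlap (16.9% of all regions each way). LHCB6 had 458 and 476 CPM at 14 cycles and 504 and 463 CPM at 10 cycles, and PSBO1 had 359 and 376 CPM against 388 and 388. LHCB6 thus overlapped between the cycle numbers, and PSBO1 lay lower at 14 cycles by a log2 fold change of -0.08 (SE 0.07). LHCB4.1 and PSAF, a photosystem I subunit, had log2 fold changes of -0.04 and -0.08. The 14 reference genes with a shared region had a median of 0.04, with 0 above and 1 below, the latter being the tubulin TUB2 at -0.18. UBQ11, a polyubiquitin, was at -0.01. Of the 24 jasmonate regions 3 stood above and 3 below, with a median of -0.01. JAZ1, a repressor of the pathway, had 389 and 376 CPM at 14 cycles and 358 and 400 CPM at 10 cycles. MYC2, the transcription factor that JAZ proteins hold in check, had 250 and 272 CPM against 307 and 288, and AOS, an enzyme of jasmonate synthesis, 236 and 240 against 246 and 248. The root genes SCR and SHR were at 0.05 and 0.16 and overlapped between the groups.

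Enrichment over the IgG control was lower at 14 cycles. The counts in all domains over those expected from IgG were 4.33-fold and 4.17-fold at 14 cycles and 4.66-fold and 5.02-fold at 10 cycles (difference of means -0.594, exact permutation test, two-sided, p = 0.33). The groups did not overlap, and the 12-cycle libraries, at 4.38-fold and 4.42-fold, lay between them. The median log2 fold change of a domain was 2.09 and 2.03 at 14 cycles and 2.21 and 2.30 at 10 cycles. Depth moved with this difference between the cycle numbers. In the depth series the values were 4.603-fold and 4.568-fold at 2M, 4.83-fold and 4.86-fold at 5M and 4.49-fold and 4.33-fold at 10M. The values thus rose from 2M to 5M and were lowest at 10M. The 5M libraries, of these the nearest in depth to 14 cycles, were the highest. Of the 10M libraries, 1 was level with replicate 1 of 14 cycles. The part of depth in the difference was not tested. To take called length out, the share of each library in the 1174 domains with identical borders in all 4 libraries was set to 100% for the mean of 10 cycles. It was 89.4% and 84.8% at 14 cycles and 97.5% and 102.5% at 10 cycles, a difference of -12.9 with no overlap (exact permutation test, two-sided, p = 0.33). Over the 158 domains identical in all 12 libraries the shares were 88.8% and 83.7% at 14 cycles, 98.0% and 102.0% at 10 cycles, 89.7% and 90.4% at 12 cycles, 93.0% and 92.7% at 2M, 103.7% and 103.0% at 5M and 99.5% and 96.4% at 10M. The 14-cycle libraries were the lowest of these, and replicate 2 of 14 cycles was the lowest single one. The values are 1 per library and carry no smaller p than 0.33.

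The change of counts from 10 to 14 cycles was set against that from 2M to 5M reads in 1 fit over these 8 libraries and the 12143 regions with a domain in all of them. The difference of the changes was called in 0 regions (0% of them), with 666 at an unadjusted p under 0.05, by edgeR's quasi-likelihood test with Benjamini-Hochberg adjustment. Without replicate 1 of 14 cycles 8 regions were called and without replicate 2 of 10 cycles 1, and DESeq2 was not run on it. The smallest adjusted p was 0.0638, at AT1G67910, where the log2 fold change was -0.20 from 10 to 14 cycles and 1.39 from 2M to 5M. In this fit 2 regions were called from 10 to 14 cycles, RLP38 and MTK (adjusted p = 0.0464 for each, the same edgeR test), and 3 from 2M to 5M. RLP38 had 51.1 and 57.2 CPM at 5M and 59.5 and 53.3 CPM at 2M, and the difference of its changes, 1.22 on the log2 scale, was not called (adjusted p = 0.295, the same edgeR test). AT5G44572 was not in this fit, since 1 of the 2M libraries had no domain there.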

How the data were processed

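H3K9ac domain lists of 4 PHILO ChIP-seq libraries (14 and 10 PCR cycles, 2 each) were compared, with 8 further libraries (12 cycles, 2M, 5M and 10M) as reference. The authors aligned reads to TAIR10 with Bowtie2 and called domains per library with epic2 against a common IgG control (listed as SICER 0.0.52 in the submitters' processing notes, beside deepTools 3.5.2). Window, gap and duplicate settings are not given in the sources used here. The deposited files give per domain a ChIP count and an IgG count, neither normalized. The authors' log2 fold change is ChIP over IgG scaled by library size. The deposited p-value and FDR were used only for a stricter threshold of 1e-10, and the deposited score was not used. Domain borders lay on a 200 bp grid, and IgG counts of identical intervals were equal in all 12 libraries.

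Domains on chromosomes 1 to 5 were merged into regions where they overlapped or touched, and a library's count in a region was the sum over its domains. Regions with a domain in all 4 libraries were tested with edgeR 4.0.16 (TMM, glmQLFit, glmQLFTest, Benjamini-Hochberg adjusted p under 0.05). DESeq2 1.42.0 was an alternative. The edgeR fit was tested on simulated data, with 200 changed regions among 12497. Single values per library were compared by exact permutation. Genes and GC content came from TAIR10.1 (RefSeq), whose chromosomes held every domain. Depth was taken only from counts in domains (1702883 to 2727224) and the recovered library-size ratio. The study lists sequencing depths in its supplement, and these were not used here. Reads were counted without molecular identifiers, so an interval computed from counts covers counting error only.

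A region takes the name of the gene it shares most bases with. Named are every called region, the 10 smallest p-values in each direction, the 5 highest mean CPM, the 2 to 4 highest-CPM members of each gene list, the 10 highest fold changes among regions of 1 cycle number, the 5 largest length differences in each direction that do not overlap, and the 3 richest and 3 poorest in GC. JAZ7, PP2AA3 and AT1G67910 were named after their values were seen. The regions, gene lists and comparisons were chosen with earlier results of these data known. GC classes, length bins, scaled counts, the comparisons with 12 cycles and 2M, and the 12-library values were chosen after seeing the data. No pair of libraries agreed within sampling noise beyond the others, so all were kept as separate samples. Alternatives covered scaling, filters, called length, domain thresholds, the replicate block, the 12-cycle libraries in the fit and leaving out each library.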

Additional observations from a re-analysis of the deposited data

Results flagged for a closer look

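A domain spanning the plastid genome (154600 bp of it) was called in replicate 2 of 14 cycles, outside the chromosomes compared above. It held 203074 of the 2725879 counts in the domains of that library, or 7.45% (Wilson 95% interval 7.42% to 7.48%, counting error only), with a log2 fold change over IgG of 0.17. No such domain was listed in replicate 1 of 14 cycles or in either 10-cycle library. The same interval was listed in replicate 2 of 12 cycles, with 7.35% of counts, and in replicate 2 of 2M, with 7.75%.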

How the results depend on the processing

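The 1 region called between 14 and 10 cycles became 0 with DESeq2, with the covered length as offset, in regions covered to at least 80% or at least 50% in every library, and in domains with identical borders. It became 4 with library size scaling (0 higher, 4 lower), 5 with the 12-cycle libraries in the fit, and 29 (19 higher, 10 lower) with the replicate number as a block. Replicate numbers did not pair the libraries (correlation of deviations -0.03, 2 pairs), so the blocked count is given only as an alternative. Without 1 library the count ran from 0 to 57. It was 57 and 25 without replicates 1 and 2 of 14 cycles, where the lone library is assumed to vary like the other group, and 0 and 1 without replicates 1 and 2 of 10 cycles. The difference from the depth change gave 0 to 8 calls without 1 library, 8 without replicate 1 of 14 cycles and 1 without replicate 2 of 10 cycles, and 0 with the block. The cause of these differences was not tested, except that fewer libraries, regions or bases enter by construction.

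Regions found only at 14 cycles numbered 169, and 263 to 585 without 1 library, since 3 libraries then decide. Those found only at 10 cycles numbered 8, and 27 to 121 without 1 library, 35 with domains of log2 fold change of at least 1, and 18 with an FDR of at most 1e-10. The difference in GC content (0.0995) ran from -0.0355 to 0.234 without 1 library. The difference in start-site coverage (0.206) was -0.00911 with domains of log2 fold change of at least 1, and ran from -0.213 to 0.625 without 1 library, being negative without replicate 1 of 14 cycles and without replicate 2 of 10 cycles (-0.197). The GC slope difference (-0.0133) ran from -0.0882 to 0.0615 without 1 library and was positive without replicate 1 of 14 cycles and without replicate 1 of 10 cycles (0.0413).

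With the covered length as offset the log2 fold change turned at AT5G44572 (0.27), RLP38 (-0.19), MTK (-0.47), AT5G02865 (-0.21), RSZ22 (-0.37), AT4G11521 (-0.98), NRPE7 (-0.93), NDL1 (-0.71), AT3G48200 (-0.20), AT3G07760 (-0.0822), GPT1 (0.64), AT2G39375 (0.74), AT3G44610 (1.09), AT3G22540 (1.21), AT1G08895 (0.21), NRT1.1 (0.49), AT5G44565 (0.80), PSBP-1 (0.19) and AT5G59500 (0.40). No other alternative turned the direction at those of the 20 regions it held, which were 4 where every library covered at least 50%, 18 with at least 50 counts, 18 with the 12-cycle libraries and none with 80% covered or identical borders.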
